A study of Mus musculus with 12 samples.

Results

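The genes of the voltage-gated sodium and calcium channels were examined in RNA of the mouse pup hippocampus. Members were the rows of the authors' deposited table whose symbol starts with Cacna, Cacnb, Cacng or Scn followed by a digit, which gave 40 genes of 29454. Of these, 20 encode pore-forming subunits and 20 encode accessory subunits. The 12 libraries came from littermate pups of the C57/BL6 strain, with 3 wild-type (WT) libraries without a transgene and 3 CAMK libraries from pups with the CaMKIIα-tTA driver alone. The 6 CX3CL1-ct libraries came from pups that carried both that driver and the Tg-CX3CL1-ct transgene, so the driver is shared by the CAMK and CX3CL1-ct groups. The driver makes the tetracycline transactivator from the CaMKIIα promoter, which is known to be active in forebrain excitatory neurons. Pups were of postnatal day 4 by the sample labels and of day 0 by the series' design text. Whether every library comes from its own pup is not in the labels, and the p-values cover the spread among these libraries, which may be technical. In bulk tissue, fewer cells of a type and less RNA per cell cannot be told apart.

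Voltage-gated sodium channels open when the membrane is depolarised and carry the upstroke of the action potential. Their large α subunit forms the pore, and small β subunits with a single membrane span adjust its gating and its place at the cell surface. Voltage-gated calcium channels turn depolarisation into calcium entry, which releases transmitter and drives signalling to the nucleus. Their pore is an α1 subunit of the L type (Cacna1c, Cacna1d, Cacna1f, Cacna1s), the P/Q, N or R type (Cacna1a, Cacna1b, Cacna1e) or the T type (Cacna1g, Cacna1h, Cacna1i). Cytoplasmic β subunits (Cacnb genes) and extracellular α2δ subunits (Cacna2d genes) bring most α1 subunits to the membrane. Most of the γ genes (Cacng2, Cacng3, Cacng4, Cacng5, Cacng7 and Cacng8) are known mainly as TARPs, proteins that escort and gate AMPA-type glutamate receptors, while Cacng1 and Cacng6 encode γ subunits known from skeletal muscle.

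The promoters of 4 members are shown because these genes carry most of the description below. Scn2a1 (the older symbol of Scn2a in the file) has the highest level of the pore-forming genes, Cacna1b encodes the N-type pore, and Cacna2d1 and Cacna2d3 are paralogues that differed in opposite directions between CAMK and WT. Each line gives the 250 bases before the most upstream start site in RefSeq (build GRCm38.p6), 5′ to 3′ on the strand of the gene, and capitals mark the GC box GGGCGG or its reverse complement CCGCCC. The regions are chr2:65620519-65620768 (plus strand), chr2:24763153-24763402 (minus strand), chr5:15934441-15934690 (plus strand) and chr14:29721865-29722114 (minus strand) in the order printed.
Scn2a1: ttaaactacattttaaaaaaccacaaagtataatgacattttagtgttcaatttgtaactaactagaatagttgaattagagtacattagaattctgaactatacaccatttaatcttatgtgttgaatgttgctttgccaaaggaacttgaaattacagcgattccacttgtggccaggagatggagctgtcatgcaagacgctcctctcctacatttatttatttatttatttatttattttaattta
Cacna1b: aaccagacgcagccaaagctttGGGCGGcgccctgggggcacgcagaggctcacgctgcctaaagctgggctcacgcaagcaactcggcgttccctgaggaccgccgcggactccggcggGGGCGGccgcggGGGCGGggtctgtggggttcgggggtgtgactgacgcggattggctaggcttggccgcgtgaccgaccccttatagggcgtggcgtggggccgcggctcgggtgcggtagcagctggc
Cacna2d1: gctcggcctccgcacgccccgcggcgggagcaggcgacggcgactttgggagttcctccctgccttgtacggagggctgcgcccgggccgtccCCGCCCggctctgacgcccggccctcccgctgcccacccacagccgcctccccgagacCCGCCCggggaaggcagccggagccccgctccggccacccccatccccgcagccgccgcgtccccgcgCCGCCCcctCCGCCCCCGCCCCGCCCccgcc
Cacna2d3: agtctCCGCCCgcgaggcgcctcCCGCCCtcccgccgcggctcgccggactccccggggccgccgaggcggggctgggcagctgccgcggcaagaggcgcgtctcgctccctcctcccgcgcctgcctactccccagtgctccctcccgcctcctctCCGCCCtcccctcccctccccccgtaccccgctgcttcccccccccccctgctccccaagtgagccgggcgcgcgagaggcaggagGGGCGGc

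The window of Scn2a1 holds no GC box, 2 CG dinucleotides and 29.6% G and C. That of Cacna1b holds 3 GC boxes and 29 CG dinucleotides at 72% G and C. Cacna2d1 and Cacna2d3 hold 6 and 4 GC boxes and 36 and 30 CG dinucleotides, at 82.4% and 80% G and C, so the paralogues that differed in opposite directions have windows of like composition. RefSeq promoters were matched for 30 of the 40 members. Taking the most upstream start of each, a GC box on either strand was found in 8 of 15 accessory genes (53.3%) and 4 of 15 pore-forming genes (26.7%), against 32.7% of all 32851 windows of the same length. The TATA motif TATAAA was found on either strand in 1 of the 30, Cacna1d, against 12.4% of all windows. Further starts of the members were not counted here. The 32851 windows do include further starts of genes, so each value given against all windows rests on an unlike base. Among the further starts of the members, a start of each of Cacna1c, Cacna1d and Cacnb3 has a GC box in its window and the rest have none. The further start of Scn2a1 has the TATA motif, at 53.2% G and C. TTCAGCACC, a part of the binding site of REST, a repressor of neuronal genes, was found in none of the 30 windows on either strand, against 0.301% of all. A match is a description of letters in this window and was not taken as a site. The median number of CG dinucleotides was 16 in the accessory genes, 4 in the pore-forming genes and 6 in all windows.

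Depth was estimated at 12300000 to 16200000 fragments per library, using the FPKM step that 1 fragment makes in short genes. Cx3cl1, the gene of the transgene, stood at 38.6 to 42.4 FPKM (fragments counted per kilobase of a transcript and per size of the library) in the WT libraries, 34.7 to 41.6 with the driver alone and 33.5 to 48.4 with driver and transgene, so its gene-level value does not set the transgenic libraries apart. All 12 listed hippocampal markers were above 0 in every library, and their summed level was lowest in CX3CL1-ct 5. Libraries also differed in markers of neighbouring tissue. The 14 striatal markers, all above 0 in every library, summed to 242 to 342 FPKM in WT 2, WT 3 and CX3CL1-ct 5 and to 67.5 to 94.3 in the other 9. CX3CL1-ct 1, 2 and 3 were closer to each other over the channel genes (root mean square log2 difference 0.0857 to 0.126) than any other libraries of a group (0.137 to 0.637). Over all genes tested this did not hold for every pair: theirs were 0.401 to 0.422, and CAMK 2 and 3 differed by 0.421. They were still treated as 3 libraries, and results are also given with them averaged.

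Tests were run on the 30 of the 40 genes with 1 FPKM or more in 3 or more libraries, 14 pore-forming and 16 accessory. The 10 others were at low levels. Among the sodium channel α genes these were Scn4a, the skeletal muscle channel, Scn10a and Scn11a, known from sensory neurons, and Scn7a, a sodium sensor. Their mean over 12 libraries was 0.00519, 0.0266, 0.0980 and 0.373 FPKM. Among the calcium channel pores they were Cacna1s of skeletal muscle (0.103 FPKM) and Cacna1f of the retina (0.0117 FPKM, listed at 0 in every WT library). Among the accessory genes they were Cacna2d4 (0.0713 FPKM), Cacng1 (0.483), Cacng6 (0.374) and the sodium channel β gene Scn4b (0.528). Scn4b was above 1 FPKM in WT 2 and WT 3 only, and Cacng1 in CX3CL1-ct 6 only.

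**Figure D1:**
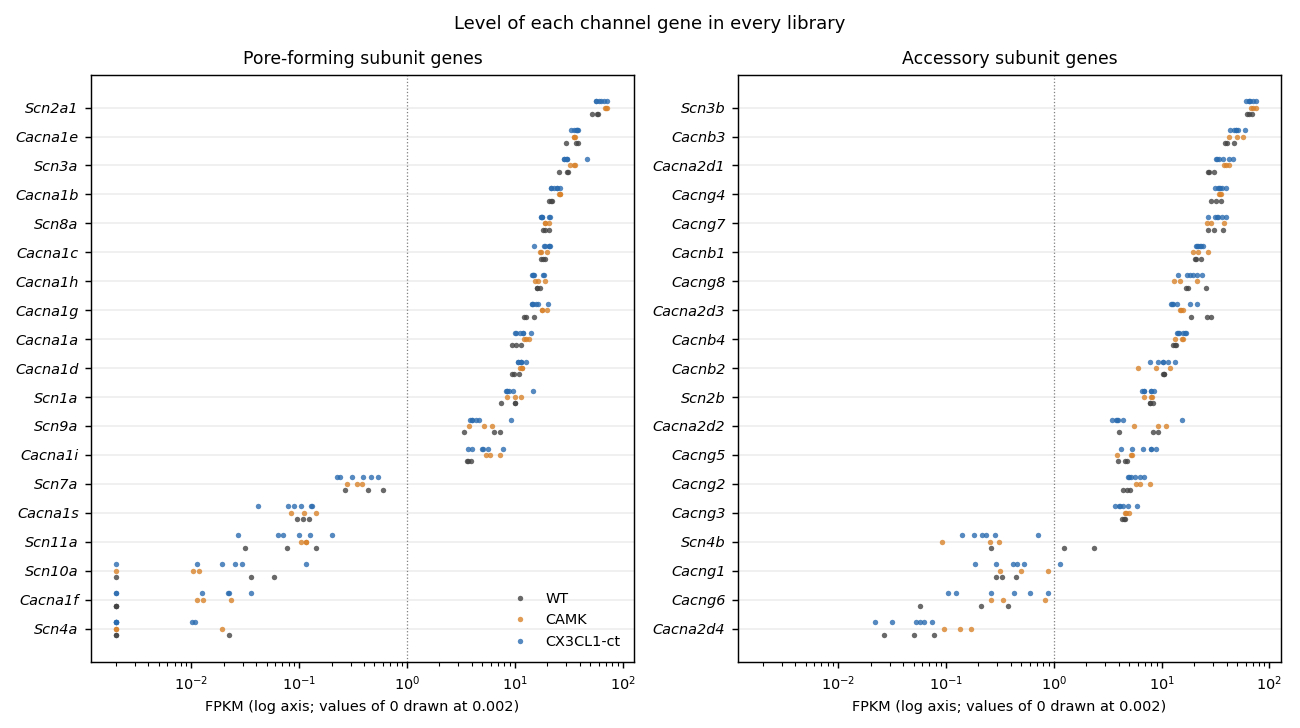
FPKM (x axis, log scale) of 19 pore-forming and 19 accessory genes (y axis, ordered by mean) in every library (points, coloured by group), with a dotted line at 1 FPKM and values of 0 drawn at 0.002. Scn2a1 and Scn3b lead the 2 classes, and the groups lie close together for most genes above 1 FPKM.

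Sodium channel α genes were led by Scn2a1. Its FPKM was 57.3, 52.3 and 58.9 in WT 1, 2 and 3, 68.0, 70.9 and 71.9 in CAMK 1, 2 and 3, and from 57.2 to 71.9 (median 61.6) in CX3CL1-ct. Every CAMK library was above every WT library, and CX3CL1-ct overlapped both. Scn3a, a channel known to be high before birth and in the newborn, stood at 25.5, 31.2 and 30.8 in WT, 32.4, 36.2 and 35.4 in CAMK and 28.4 to 46.6 (median 30.3) in CX3CL1-ct, where library 5 was the highest. Scn8a, the main channel of the mature axon initial segment, stood at 20.8, 18.3 and 18.9 in WT, 20.7, 19.1 and 18.9 in CAMK and 17.4 to 21.0 (median 17.8) in CX3CL1-ct. Of all members with a mean of at least 1 FPKM it varied least, with 1.21 times between the highest and the lowest library. Scn1a, the channel that predominates in mature inhibitory interneurons, stood at 7.40 to 10.1 in WT, 8.51 to 11.5 in CAMK and 8.29 to 14.8 in CX3CL1-ct. Of the sum of these 4 brain channels, Scn2a1 made up 45.8 to 54.0%, Scn3a 22.9 to 32.1%, Scn8a 12.0 to 18.8% and Scn1a 6.57 to 10.1%. The order Scn2a1, Scn3a, Scn8a, Scn1a held for the group means in all 3 groups.

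Among the sodium channel β genes, Scn3b was the highest member of all 40, at 65.2, 62.4 and 69.1 FPKM in WT, 66.8, 70.8 and 74.7 in CAMK and 61.0 to 74.9 (median 65.6) in CX3CL1-ct. It was as steady as Scn8a, with 1.23 times between its extremes. Scn2b stood at 6.62 to 8.56 across all 12 libraries. The summed β level was 0.588 to 0.906 of the summed α level, with the lowest ratio in CX3CL1-ct 5 and the highest in WT 1.

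Calcium channel pores were led by Cacna1e, the R-type channel, at 30.0, 38.3 and 36.8 FPKM in WT, 36.3, 35.8 and 35.1 in CAMK and 33.6 to 38.6 (median 37.3) in CX3CL1-ct. Cacna1b, the N-type channel of transmitter release, stood at 22.2, 20.9 and 21.5 in WT, 25.8, 26.5 and 26.5 in CAMK and 21.6 to 26.5 (median 23.8) in CX3CL1-ct. All CAMK libraries were above all WT libraries. Cacna1a, the P/Q-type channel that serves release at most mature synapses, stood lower, at 9.42 to 11.4 in WT, 12.1 to 13.5 in CAMK and 10.1 to 14.05 in CX3CL1-ct, and in every library was below Cacna1b. Both brain L-type pores were present, Cacna1c at 15.1 to 21.1 and Cacna1d at 9.48 to 12.7 over all libraries. Of the T-type pores, which open near the resting potential, Cacna1h stood at 14.5 to 19.0 and Cacna1g at 12.1 to 20.5, while Cacna1i stood at 3.57 to 7.80.

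The accessory calcium channel genes were led by the β subunit Cacnb3, at 47.4, 39.1 and 40.3 FPKM in WT, 57.3, 42.4 and 50.3 in CAMK and 42.9 to 58.7 (median 49.3) in CX3CL1-ct. Cacnb1 followed at 19.7 to 27.0 over all libraries, Cacnb4 at 12.6 to 16.8 and Cacnb2 at 6.03 to 13.4. Among the α2δ genes, the order of group means was Cacna2d1, Cacna2d3, Cacna2d2 in all 3 groups, although in WT 2 Cacna2d3 (28.5) was above Cacna2d1 (26.8). Among the TARPs, Cacng4 and Cacng7 stood at 28.7 to 39.3 and 26.2 to 39.2 and Cacng8 at 13.2 to 25.8, while Cacng2 (stargazin), Cacng3 and Cacng5 stayed below 9 in every library. Cacng2, for example, stood at 4.38 to 7.80. Cacng8 is known as the prevailing TARP of the adult hippocampus, and at this age its mean, 18.7, was below those of Cacng4, 34.3, and Cacng7, 32.2.

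The median of the gene means was 12.3 FPKM over the 20 accessory genes and 10.4 over the 20 pore-forming genes, and 11 and 10 of them had a mean of at least 10. The summed accessory level was 1.18 to 1.45 times the summed pore-forming level in the 12 libraries. Without the 6 TARPs, which serve AMPA receptors, this ratio was 0.863 to 1.03. By group the ratio with all accessory genes was 1.37 ± 0.0683 (SD, n = 3) in WT, 1.25 ± 0.0683 (n = 3) in CAMK and 1.33 ± 0.0700 (n = 6) in CX3CL1-ct. Every CAMK library was below every WT library, and CX3CL1-ct overlapped both. The pore-forming sum was 245 to 257 FPKM in WT, 286 to 289 in CAMK and 252 to 298 in CX3CL1-ct, and the accessory sum 333 to 355, 340 to 377 and 339 to 370. The CAMK and WT libraries were thus apart in the pore-forming sum and overlapped in the accessory sum. No p is given for these sums, since they are scores over the chosen members.

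**Figure D2:**
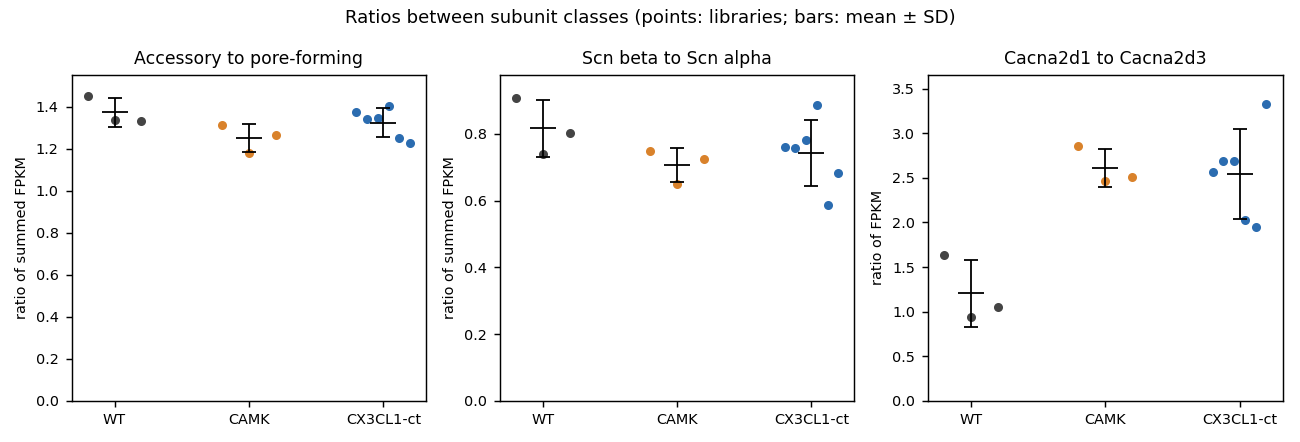
Ratio of summed accessory to summed pore-forming FPKM, of summed Scn β to summed Scn α FPKM, and of Cacna2d1 to Cacna2d3 FPKM (y axes, from 0) in WT, CAMK and CX3CL1-ct (x axis); points are libraries and bars the mean ± SD. The first ratio is lower in every CAMK library than in every WT library, and the Cacna2d1 to Cacna2d3 ratio is at most 1.64 in WT and at least 1.95 in all driver-carrying libraries.

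The comparison of CAMK with WT asks what the driver changes alone. Of the pore-forming genes, 11 of 14 had a positive log2 difference, with a median of 0.14, and of the accessory genes 10 of 16, with a median of 0.08. The order of these medians turned with the filter on low values: without it they were 0.0293 for 20 pore-forming and 0.0973 for 20 accessory genes. Over all 16503 genes tested the median was 0.00 and 50.5% were positive. In limma over all genes none of the 30 passed at an adjusted p of 0.05, where 0.358% of all genes did (0.0848% higher and 0.273% lower). At an unadjusted p under 0.05 there were 8 higher and 1 lower, against 6.60% and 5.79% of all genes, or 12.4% in both directions. Of these, 6 were pore-forming (Cacna1a, Cacna1b, Cacna1d, Cacna1g, Cacna1i and Scn2a1) and 3 accessory (Cacna2d1, Cacna2d3 and Cacng2). The groups did not overlap for 10 of the 30, 9 higher and 1 lower in CAMK, against 18.0% of all genes (9.22% higher and 8.80% lower). These were the 9 just named and Scn3a. Whether the 2 classes differ in this was not tested.

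Over all genes tested, the deviations of same-numbered CAMK and WT libraries from their group means correlated weakly, by 0.236, 0.163 and 0.1003. The last barely met the rule for pairs (over 0.1 in each). The fit with the replicate number as a block is therefore given beside this comparison. That fit covers all 12 libraries, but CX3CL1-ct 4, 5 and 6 are each alone in their block. They therefore add nothing to its estimate of the spread, on which the calls between CAMK and WT rest. CX3CL1-ct 1, 2 and 3 share its blocks and enter its estimate of the spread, although their numbers did not pair them with CAMK or WT. Over all genes 59 were called without the block. With the block, 6 of the 30 passed, 5 higher and 1 lower, of 490 genes called in all (1.87% of genes higher and 1.10% lower). Those higher in CAMK were Cacna2d1 (adjusted p = 0.0192), Cacna1i (0.0206), Cacna1g (0.0232), Scn2a1 (0.0442) and Cacna1b (0.0466), and the lower one was Cacna2d3 (0.0437). Scn3a (0.0614), Cacng2 (0.0681) and Cacna1a (0.0999) stayed above the threshold. Without the block the adjusted p of the 6 were 0.135 to 0.235, and 3 against 3 libraries cannot give an exact permutation p below 0.1, which all 6 reached.

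Cacna2d1, the α2δ subunit that binds gabapentin, stood at 30.6, 26.8 and 27.5 FPKM in WT 1, 2 and 3 and at 42.1, 37.7 and 39.9 in CAMK 1, 2 and 3. No CAMK library came near the WT range, and the log2 difference was 0.48 (SE 0.12). Its paralogue Cacna2d3 stood at 18.7, 28.5 and 26.3 in WT and at 14.7, 15.3 and 15.9 in CAMK, a log2 difference of -0.62 (SE 0.20). WT 1, the WT library with few striatal markers, was the lowest WT library for Cacna2d3. Without WT 2, WT 3 and CX3CL1-ct 5, an alternative chosen after seeing the data, the difference was -0.27 (adjusted p = 0.590) for Cacna2d3 and 0.37 (0.449) for Cacna2d1. WT 1 is then the only WT library, and these p-values, like all others given without those 3 libraries, assume that it varies like the libraries of the other groups. Cacna2d1 lies on chromosome 5 (15934691 to 16374511, mm10) and Cacna2d3 on chromosome 14 (28904943 to 29721864), and neither has exons that overlap another gene.

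Among the pores, the T-type channel Cacna1i stood at 3.97, 3.57 and 3.71 FPKM in WT and 7.35, 5.37 and 5.84 in CAMK, a log2 difference of 0.59 (SE 0.19). Its relative Cacna1g stood at 15.2, 12.1 and 12.7 against 19.9, 17.7 and 17.8, a difference of 0.44 (SE 0.12). The third T-type gene, Cacna1h, stood at 17.2, 16.1 and 16.2 against 19.0, 15.3 and 16.3, a difference of 0.02 (SE 0.11). The difference was 0.32 (SE 0.09) for Scn2a1 and 0.27 (SE 0.08) for Cacna1b, whose values per library are given above. Of the TARPs, Cacng2 stood at 4.38, 5.12 and 4.76 in WT and 5.78, 7.80 and 6.36 in CAMK (log2 difference 0.40, SE 0.13, adjusted p = 0.223). Exons of Cacng2 overlap a gene on the opposite strand.

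**Figure D3:**
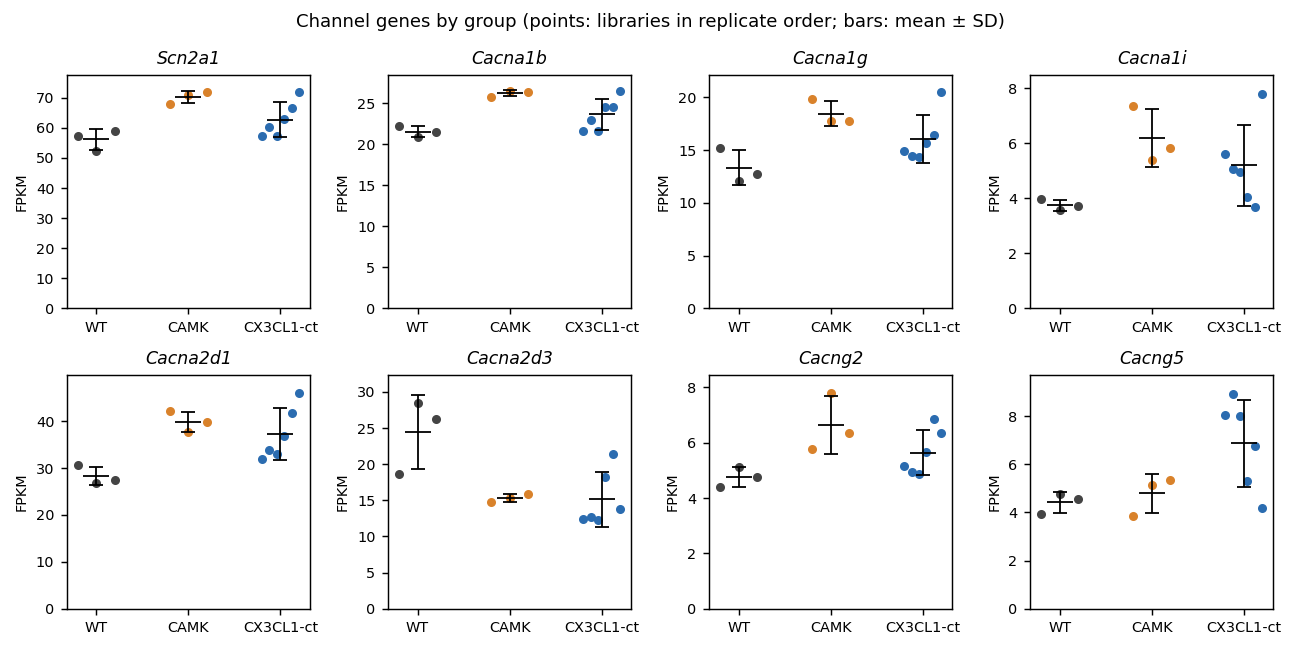
FPKM (y axes, from 0) of 8 channel genes by group (x axis); every point is a library, and the bars give the mean ± SD. Cacna2d1 is higher and Cacna2d3 lower in every CAMK library than in every WT library, and Cacng5 is highest in CX3CL1-ct 1, 2 and 3.

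Other measures also differed between these groups. The 12 general neuronal markers, none at 0 in any library, summed to 2099 to 2605 FPKM in WT and 2648 to 3122 in CAMK, with 6 of 12 higher in every CAMK library than in every WT library. The 12 neocortical markers, none at 0, summed to 328 to 337 in WT and 422 to 658 in CAMK, and 7 of 12 were higher in every CAMK library. The 12 hippocampal markers summed to 291 to 445 in WT and 453 to 617 in CAMK, with 3 higher and 4 lower in every CAMK library. The 10 markers of meninges and fibroblasts, none at 0, summed to 49.7 to 73.7 and 77.2 to 88.1, with 6 higher in every CAMK library. The 9 interneuron markers, none at 0, summed to 305 to 376 in WT and 275 to 290 in CAMK, with 1 lower in every CAMK library. The 8 markers of astrocytes and radial glia, none at 0, summed to 972.4 to 1018.5 in WT and 810.2 to 1018.1 in CAMK. Of these, 3 were lower in every CAMK library. Over all genes tested, 9.22% were higher and 8.80% lower in every CAMK library than in every WT library. The 14 striatal markers summed to 67.5 to 342 in WT and 85.7 to 94.3 in CAMK. Differences also followed the length of the gene: genes that span less than 20 kb had a median log2 difference of -0.01 with 47.8% positive, and genes of 200 kb and more had 0.06 with 60.8% positive. The pore-forming genes span a median of 111 kb and the accessory genes 37.9 kb. An unadjusted p under 0.05 was reached by 4 of 9 members that span 100 to 200 kb, against 17.4% of all genes of that span, and by 4 of 8 members of 200 kb and more, against 22.7%. The part of these measures in the differences was not tested.

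CX3CL1-ct against CAMK asks what the transgene adds to the driver. It shares the CAMK libraries with the comparison above, so a high CAMK value enters both with opposite signs, and the signs are no support for each other. By their log2 difference 12 of 14 pore-forming genes and 10 of 16 accessory genes were lower in CX3CL1-ct. The medians were -0.07 and -0.02, while over all genes the median was 0.04 and 63.2% were positive. None of the 30 passed the adjusted threshold, where 0.0606% of all genes did (0.0121% higher and 0.0485% lower). At an unadjusted p under 0.05, 1 was higher and 2 were lower, against 5.33% and 1.04% of all genes, or 6.37% in both directions. The direction over all genes differed with scaling: of 16503, 10432 were positive as deposited, 8192 with median-of-ratios scaling and 8285 with quantile normalization. Both alternatives bring the libraries to a like centre, so a near-even split is built into them. It cannot show where the shift in the deposited values comes from. At an unadjusted p under 0.05, median-of-ratios scaling gave 0 members higher and 3 lower, against 3.04% and 2.51% of all genes, and quantile normalization 0 and 4, against 3.10% and 2.41%. Cacng5, a TARP of atypical type, was the one that was higher, at 3.87, 5.15 and 5.35 FPKM in CAMK and 8.05, 8.92, 8.02, 5.32, 6.75 and 4.18 in CX3CL1-ct 1 to 6. The 3 highest were the 3 libraries that resemble each other, and CX3CL1-ct 6 and 4 lay within the CAMK range. The log2 difference was 0.42 (SE 0.19, adjusted p = 0.775, exact permutation p = 0.107), and 0.28 (adjusted p = 0.99998) with those 3 averaged. Scn2a1 and Cacna1b were lower in CX3CL1-ct than in CAMK (log2 differences -0.17, SE 0.08, and -0.15, SE 0.07), with an adjusted p of 0.775 and an exact permutation p of 0.0833 for both. In both genes the highest CX3CL1-ct library, number 6, was level with the highest CAMK library. The 2 values were 71.92 and 71.91 FPKM for Scn2a1 and 26.54 and 26.48 for Cacna1b. The groups did not overlap for 0 of the 30 genes, against 3.30% of all genes (2.78% higher and 0.527% lower).

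CX3CL1-ct against WT, which share no transgene, asks what driver and transgene do together. These values share the WT libraries with the comparison of CAMK and WT, so they are given beside it and not as support. Of the pore-forming genes 10 of 14 were positive (median 0.10) and of the accessory genes 10 of 16 (median 0.04, or -0.01 with either scaling alternative), while over all genes the median was 0.04 and 62.7% were positive. None of the 30 passed, where 0.454% of all genes did (0.200% higher and 0.254% lower, which is 33 and 42 genes, but 20 and 53 with median-of-ratios scaling and 24 and 56 with quantile normalization). At an unadjusted p under 0.05, 5 were higher and 1 was lower, against 8.80% and 3.49%, or 12.3% in both directions. With either scaling alternative 2 were higher and 1 was lower, against 4.96% and 5.64% with median-of-ratios scaling and 5.43% and 5.19% with quantile normalization. The groups did not overlap for 2 of the 30, Cacna2d1 and Cacnb4, both higher, against 6.04% of all genes (4.67% higher and 1.38% lower).

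In CX3CL1-ct 1 to 6 Cacna2d1 stood at 31.9, 33.9, 33.0, 36.8, 41.7 and 46.1 FPKM, all above the WT libraries, with a log2 difference of 0.37 (SE 0.11, adjusted p = 0.174, exact permutation p = 0.0238). Cacna2d3 stood at 12.4, 12.6, 12.2, 18.2, 21.4 and 13.8 in the same libraries, a difference of -0.67 (SE 0.18, adjusted p = 0.140, exact permutation p = 0.0357). CX3CL1-ct 5, with many striatal markers, was the highest for Cacna2d3 and the only one above WT 1. Without that library the difference was -0.77 and passed (adjusted p = 0.0338). With CX3CL1-ct 1, 2 and 3 averaged, the difference was -0.55 (adjusted p = 0.439). The ratio of Cacna2d1 to Cacna2d3 was 1.64, 0.940 and 1.05 in WT 1, 2 and 3, 2.47 to 2.85 in CAMK and 1.95 to 3.33 in CX3CL1-ct, with no overlap between WT and the libraries that carry the driver. This ratio was singled out after the values were seen and was not tested.

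The β subunit gene Cacnb4 stood at 12.6, 13.3 and 13.5 FPKM in WT and at 13.9 to 16.8 (median 15.2) in CX3CL1-ct, a log2 difference of 0.20 (SE 0.07, adjusted p = 0.316). Its exons overlap a gene of the opposite strand. Cacng5 (0.50, SE 0.19), Cacna1g (0.24, SE 0.11) and the L-type pore Cacna1d (0.15, SE 0.06) had adjusted p of 0.304, 0.382 and 0.365. All 4 were higher in CX3CL1-ct by their means, and for Cacng5, Cacna1g and Cacna1d the libraries overlapped those of WT. For Cacna1g the difference was 0.06 (adjusted p = 0.937) without WT 2, WT 3 and CX3CL1-ct 5.

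**Figure D4:**
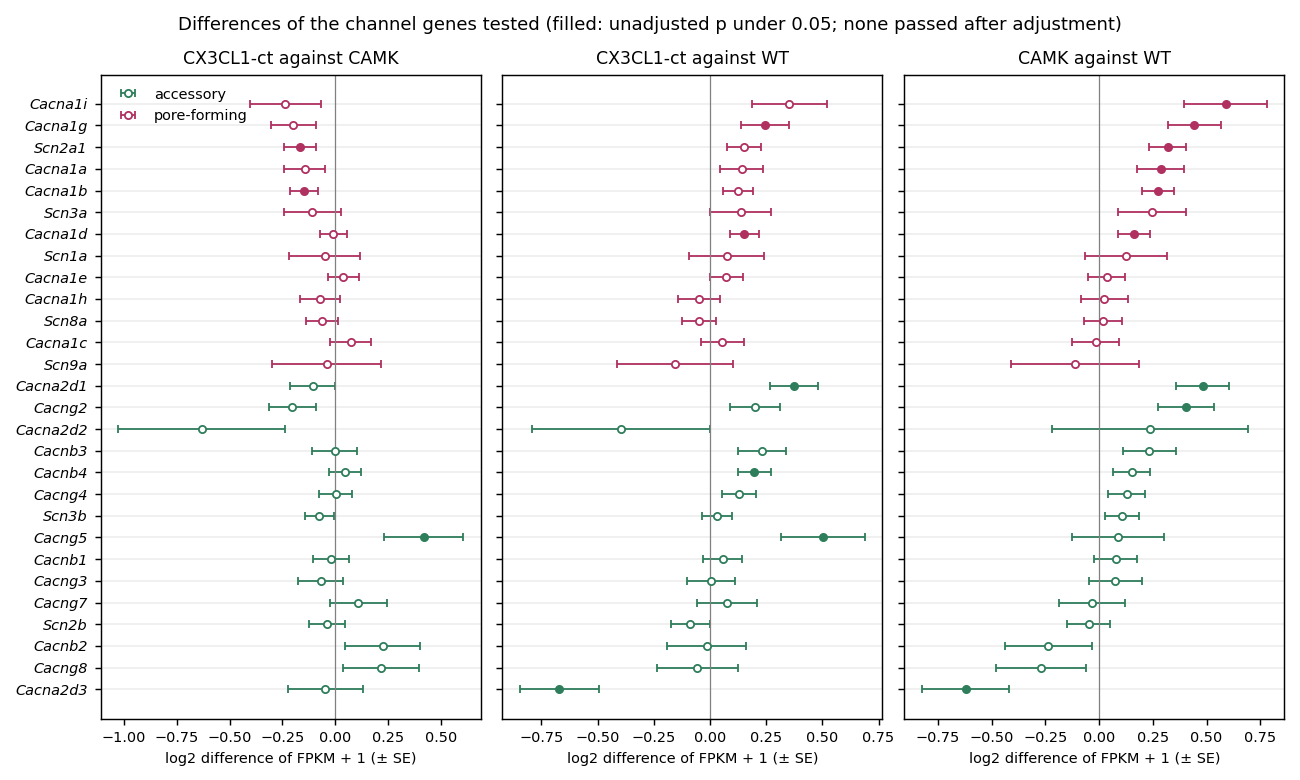
Log2 difference of FPKM + 1 with its SE (x axes) for 28 of the channel genes tested (y axis) for the 3 pairs of groups, 1 panel each, pore-forming and accessory genes in different colours. Filled points have an unadjusted p under 0.05 in limma (3 genes for CX3CL1-ct and CAMK, 6 for CX3CL1-ct and WT, 9 for CAMK and WT), and none passed after adjustment over all genes.

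Apart from the groups, 4 members described here had their 3 highest libraries in WT 2, WT 3 and CX3CL1-ct 5: Scn4b, Scn9a, Scn10a and Cacna2d3. Of these, Scn9a and Cacna2d3 passed the filter, and 5.05% of all genes tested had these 3 libraries as their highest. Scn4b, the β subunit known from striatal projection neurons, stood at 2.38, 1.25 and 0.719 FPKM in WT 2, WT 3 and CX3CL1-ct 5 and at 0.0924 to 0.314 in the other 9. Scn9a, known from pain-sensing and hypothalamic neurons, stood at 7.30, 6.38 and 9.27 in these libraries against 3.37 to 6.13 in the other 9, and its exons overlap a gene of the opposite strand. Of the 14 striatal markers, 12 were higher in each of these 3 libraries than in all other libraries. The part of striatal tissue in these channel values was not tested.

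Cacna2d2, the third brain α2δ gene, had a different order of libraries. It stood at 15.5 FPKM in CX3CL1-ct 5 and 3.50 to 4.41 in the other 5 libraries of that group. CAMK 1, 2 and 3 had 5.53, 11.0 and 9.20, and WT 1, 2 and 3 had 4.05, 9.34 and 8.38. Its exons overlap a gene of the opposite strand. It was thus high in CAMK 2 and 3 as well, where the striatal sum was 91.6 and 94.3. The 10 thalamic markers, of which Gbx2 was at 0 in at least 1 library, summed to 192 in CX3CL1-ct 5, 166 and 133 in CAMK 2 and 3 and 63.8 to 117 in the other 9. The order of those 9 was not that of Cacna2d2. WT 2 and 3 had thalamic sums of 93.3 and 97.2. CX3CL1-ct 1, 2 and 3 had sums of 110 to 117 and Cacna2d2 at 3.75 to 3.98. The part of thalamic tissue in the value of Cacna2d2 was not tested.

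**Figure D5:**
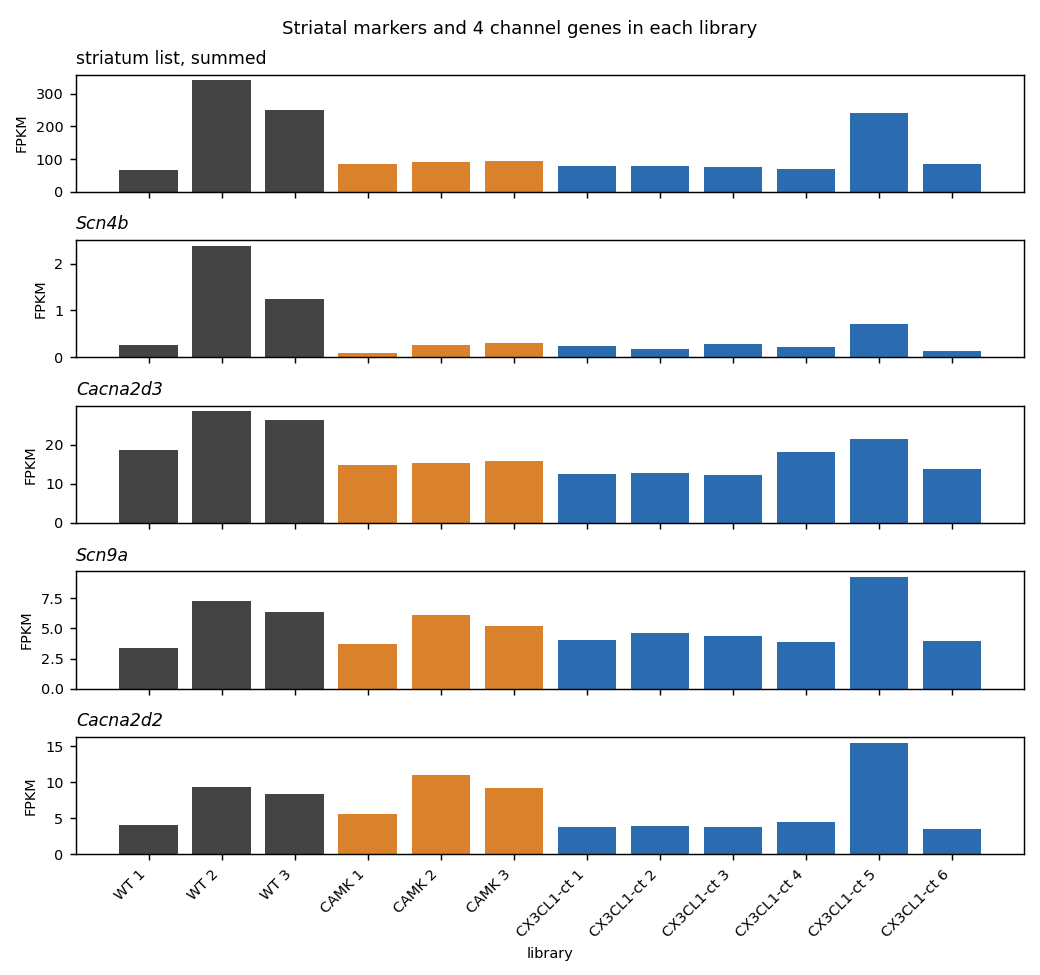
Summed FPKM of 14 striatal markers and FPKM of Scn4b, Cacna2d3, Scn9a and Cacna2d2 (y axes, from 0) in each of the 12 libraries (x axis, bars coloured by group). WT 2, WT 3 and CX3CL1-ct 5 are the 3 highest for the striatal markers, Scn4b, Cacna2d3 and Scn9a, while Cacna2d2 is also high in CAMK 2 and 3.

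Several members are neighbours in the genome, and some neighbours differed widely in level while others were close. On chromosome 2, Scn3a (minus strand) and Scn2a1 (plus strand) point away from each other across 53.1 kb, and both were high, at a mean of 32.2 and 63.0 FPKM. Farther along the chromosome Scn1a, Scn9a and Scn7a follow on the minus strand at 39.2 and 38.5 kb, with means of 9.69, 5.19 and 0.373. On chromosome 9, Scn10a and Scn11a lie 34.4 kb apart with means of 0.0266 and 0.0980, and Scn2b (7.65) lies 8.32 kb from Scn4b (0.528). The γ genes form 2 such rows. Cacng7, Cacng8 and Cacng6 on chromosome 7 had means of 32.2, 18.7 and 0.374, and Cacng1, Cacng4 and Cacng5 on chromosome 11 had 0.483, 34.3 and 5.74. In both rows the muscle-type gene was the low one, 49.9 times below Cacng8 and 70.9 times below Cacng4. The widest step between neighbours was 263 times, from Cacna1c (18.7) to Cacna2d4 (0.0713), 40.1 kb away on chromosome 6.

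Of 43 genes listed as partners of these channels, 41 were in the table and 34 were tested. Between CAMK and WT, 1 of 34 passed, higher in CAMK, where 0.358% of all genes passed. At an unadjusted p under 0.05, 5 were higher and 2 lower, against 6.60% and 5.79% of all genes. In the other comparisons 0 of 34 passed the adjusted threshold in limma. Of all genes, 0.0606% passed for CX3CL1-ct against CAMK and 0.454% for CX3CL1-ct against WT. In each, 2 of 34 had an unadjusted p under 0.05, against 6.37% and 12.3% of all genes in the same order. Fgf12, an intracellular FGF that binds the tail of sodium channels, was the one that passed. It stood at 29.1, 30.7 and 31.9 FPKM in WT, 36.8, 41.1 and 41.2 in CAMK and 34.3 to 39.3 in CX3CL1-ct, and the log2 difference between CAMK and WT was 0.36 (SE 0.07, adjusted p = 0.0445). The call held in 13 of 25 settings, with log2 differences of 0.32 to 0.43 and an adjusted p of 0.0186 to 0.207. It ended without any single WT library (adjusted p = 0.0874, 0.151 and 0.116 without WT 1, 2 and 3), without CAMK 2 (0.152) or CAMK 3 (0.207), without CX3CL1-ct 1, 2 or 3 (0.0742 to 0.0876), and with those 3 averaged (0.119). It also ended with only the 2 groups fitted (0.141), with quantile normalization (0.0824) and without WT 2, WT 3 and CX3CL1-ct 5 (0.204). Rims1, a presynaptic scaffold that binds calcium channels, stood at 17.3, 17.0 and 20.2 in WT and 21.7, 25.3 and 23.7 in CAMK (log2 difference 0.36, adjusted p = 0.0992). Ank2, an ankyrin, and Shisa9, an AMPA receptor partner, had log2 differences of 0.25 and 0.34 and an adjusted p of 0.268 and 0.218. All 4 of these were lower in CX3CL1-ct than in CAMK by their group means. For Rims1 that log2 difference was -0.24 (adjusted p = 0.725), and the CAMK libraries are the same in both comparisons.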

How the data were processed

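Total RNA of the hippocampus was sequenced after depletion of ribosomal RNA, in paired ends on an Illumina HiSeq, per the labels' protocols. The authors deposited an FPKM value per gene and library; per the submitters' processing notes TopHat, Bowtie, Cufflinks and Cuffdiff were used with build mm10. Versions, scaling between libraries and the use of strand in counting are not given in the sources used here. Exons of 10 of the 40 members overlap a gene of the opposite strand, and those values are uncertain to that extent. The file holds no counts, and depth was estimated from the value of 1 fragment in genes of 500 to 5000 nt with 1 exon, assuming fragments of 180 nt.

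Values were taken as log2(FPKM + 1), a scale that understates changes of low genes. Genes of 1 FPKM or more in 3 or more libraries (16503) were fitted with limma 3.58.1 (R 4.3.3, eBayes with trend) in 1 model with 3 group means over 12 libraries, and two-sided tests were called at 0.05 after Benjamini-Hochberg adjustment over all 16503. Exact permutation tests over libraries were two-sided. The steps were tested on simulated data. Between CAMK and WT, libraries of equal number had deviations from their group mean that correlated by 0.236, 0.163 and 0.1003, which met the rule for pairs (over 0.1 in each), the last of them barely. For CX3CL1-ct this failed, both toward CAMK (0.110, -0.130, -0.0912) and toward WT (0.114, -0.0622, 0.0106). Gene positions come from GENCODE M21 (mm10) and promoters from RefSeq. Members were named for an adjusted p at the threshold with or without the block, or an unadjusted p under 0.05. Others were named for the 2 highest levels of each family or the widest and narrowest ranges. Values of named members are given per library or by range, and those of the rest by range or mean. Single values of 2 members, which stay in all counts and sums, are not reported here. Members and lists were chosen with earlier results of these data known. Tables used pandas 2.3.3 under Python 3.11.15.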

Additional observations from a re-analysis of the deposited data

Results flagged for a closer look

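In the CX3CL1-ct group of 6 libraries, 9 of the 38 members described here had 1 library far from the others, where chance marks about 1 group in 20. Of the 28 that passed the filter 6 did, against 12.9% of all genes tested. The 9 are not independent, since they rest on 2 libraries. In 6 of them it was CX3CL1-ct 5, which was far above the others, as it was for 6.13% of all genes tested. Cacna2d2 stood there at 15.5 FPKM with the next at 4.41, Scn3a at 46.6 with the next at 30.7, Scn1a at 14.8 with the next at 9.73, and Scn9a at 9.27 with the next at 4.61. Scn4b stood at 0.719 with the next at 0.286 and Scn10a at 0.117 with the next at 0.0298. In the other 3 it was CX3CL1-ct 6, far above in 1.48% of all genes tested: Cacna1g at 20.5 with the next at 16.4, Cacna1d at 12.7 with the next at 11.4, and Cacng1, near the limit of detection, at 1.14 with the next at 0.524. CX3CL1-ct 5 had a summed level of striatal markers of 242 FPKM and of hippocampal markers of 234, the lowest of all libraries, and CX3CL1-ct 6 the highest sums of hippocampal (726) and neocortical (745) markers. Their part in these values was not tested.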

How the results depend on the processing

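All 17 differences of named members kept their direction under all 24 other settings, and 12 of the 408 values passed the threshold. Many settings cannot move a log2 difference. For CAMK against WT, the filters, the block, the fit of 2 groups and changes to CX3CL1-ct libraries leave that of a gene as it was. The differences were also named by their p in these same data, so the kept direction is no support for them. For CAMK against WT, 6 members were called with the replicate block and 0 to 2 without 1 library; the 2 were Cacna2d1 and Cacna1g without CX3CL1-ct 6. Over all genes 59 were called, against 490 with the block, 123 without a filter, 122 with the lower filter, 26 with CX3CL1-ct 1 to 3 averaged, 10 without WT 2, WT 3 and CX3CL1-ct 5 (chosen after seeing the data) and 21 to 153 without 1 library. The pore-forming median of 0.14 was 0.0293 without a filter and 0.0372 with the lower filter (0.1 FPKM), where the accessory median of 0.08 was 0.0973 and 0.0868 and so the higher of the 2. The pore-forming one was 0.25 without those 3 libraries and 0.11 to 0.21 without 1 library.

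For CX3CL1-ct with CAMK or WT the numbers did not pair the libraries, and the block leaves CX3CL1-ct 4 to 6 without weight. It called 1 member against CAMK (Cacng5) and 2 against WT (Cacng5 and Cacna2d3), of 171 and 540 genes, and moved the pore-forming median against CAMK to -0.18. Against CAMK 10 genes were called, 0 when genes with a whole group at 0 were left out (1028 with an unadjusted p under 0.05) and 9 to 12 without 1 library, with 0 members in each. The pore-forming median was -0.16 without WT 2, WT 3 and CX3CL1-ct 5 and -0.1611 to -0.0493 without 1 library, and the accessory one -0.0581 with median-of-ratios scaling and -0.0612 to -0.0026 without 1 library. Against WT 75 genes were called, 144 without a filter, 163 with the lower filter, 38 with only the 2 groups, 28 with the 3 libraries averaged, 12 without WT 2, WT 3 and CX3CL1-ct 5 and 26 to 158 without 1 library, with 0 to 1 members. The accessory median of 0.04 was -0.0071 with median-of-ratios scaling, -0.0112 with quantile normalization, -0.0271 without those 3 libraries and 0.0076 to 0.081 without 1 library. The ratio of summed accessory to pore-forming levels, 1.32 on average, was 0.942 without the TARPs and 1.31 to 1.33 without 1 library. The causes were not tested, apart from the genes and libraries each setting drops. For members under 1 FPKM, depth of a few fragments limits any comparison.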
